A study of Mus musculus with 3 samples.

Results

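The 10 genes described here encode the main apolipoproteins of mouse liver and the transfer protein that loads lipid onto them. They are Apoa1, Apoa2, Apoa4, Apoa5, Apob, Apoc1, Apoc2, Apoc3, Apoe and Mttp, taken by symbol from 32285 features. The rule used no measured value, but the members were chosen with earlier results of these data known. All 10 had at least 100 unique molecular identifiers (UMIs) in the hepatocyte-like nuclei of each library. The libraries are single-nucleus RNA sequencing of frozen liver from male mice, labelled C57BL/6 in the sample records and C57BL/6N in the design text, 8 weeks old when the diets began. SD is a control kept on the standard diet with no agent. MASLD is named for metabolic dysfunction-associated steatotic liver disease, and its animals had a diet meant to bring that on, together with a drink of glucose and fructose, for 18 weeks. Aza-TdC had that same diet and drink for 18 weeks and was also given 5-Aza-4′-thio-2′-deoxycytidine by mouth each day, 2 mg per kg, from week 14 to week 18. The agent is an analogue of deoxycytidine known to lower DNMT1, which copies DNA methylation at replication. No library came from treated mice on the standard diet, so an effect of the agent apart from the diet cannot be told apart here. The question the series title names is the role of DNMT1 in the progression of the disease.

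Apolipoproteins are the protein parts of the particles that carry lipid in blood. In hepatocytes, apolipoprotein B is folded around triglyceride that the microsomal triglyceride transfer protein delivers in the endoplasmic reticulum, and the particle leaves the cell as very low density lipoprotein (VLDL). The smaller apolipoproteins exchange between particles and set how lipases and receptors handle them, and apolipoproteins A1 and A2 build high density lipoprotein (HDL).

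Each group had 1 library, with no statement of how many animals it holds, so no difference between groups could be tested, and every interval below is a 95% interval for counting error only. After filtering, 7139 SD, 6726 MASLD and 7591 Aza-TdC nuclei were kept, with median UMIs of 5849, 6030 and 6385 per nucleus, and pairs of libraries shared 9 to 15 cell barcodes. Clusters of nuclei with hepatocyte markers held 6861, 5975 and 6795 of them, and all 20 hepatocyte markers were present in each library. Except for clusters 11 and 14, which MASLD and Aza-TdC shared, these clusters were almost wholly library-specific. SD nuclei lay in clusters 0, 1 and 3, MASLD nuclei in clusters 9, 13 and 14 and Aza-TdC nuclei in clusters 10, 12 and 14. Clusters 9 and 13 each had 1 marker of another class and none of hepatocytes among their 10 leading genes (Spp1, a bile duct marker, and Themis, a T cell marker), and Apoa4 was itself a leading gene of cluster 9. Levels are therefore also given by numbered cluster. Ranges over clusters take those with at least 100 nuclei of the library, 3 in each. Smaller ones are left out of the ranges, among them cluster 11, described below, and the 70 Aza-TdC nuclei of cluster 9. Mitochondrial UMIs made up a median of 0.124%, 0.188% and 0.0816% of those in hepatocyte-like nuclei, in the order SD, MASLD, Aza-TdC. The 7 erythroid markers summed to 38.4, 364 and 59.9 UMIs per 1000000 (CPM) there. The part of these differences in the results was not tested beyond the restricted values given below.

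The members occupy 5 places in the genome (coordinates on GRCm38, GENCODE vM21). Apoa1, Apoc3, Apoa4 and Apoa5 lie within 43.3 kb of chromosome 9, at chr9:46228580-46230466, chr9:46232933-46235636, chr9:46240696-46243459 and chr9:46268633-46271919, Apoc3 on the minus strand and the others on the plus strand. Apoc2, Apoc1 and Apoe lie within 27.6 kb on the minus strand of chromosome 7, at chr7:19671579-19677941, chr7:19689481-19692660 and chr7:19696109-19699188. Apoa2 stands alone at chr1:171225054-171226379 on the plus strand, Apob at chr12:7977648-8016835 on the plus strand and Mttp at chr3:138089854-138144968 on the minus strand. Apob and Mttp differ from the rest in size. Their introns add up to 25254 and 48909 bases, against 651 to 5550 in the other 8 genes, which matters for nuclear RNA because intronic reads may be counted. Apoc2 overlaps a readthrough gene on its own strand, which is not among the features counted. Apoa4, Apoa5 and Mttp overlap genes on the opposite strand only. The part of these overlaps in the counts of the 4 genes was not tested.

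Of the 10 members, 8 had an entry in the RefSeq promoter table (build GRCm38.p6). The 4 stretches below lie directly upstream of the annotated first exons and are shown because 3 of them belong to neighbours in the chromosome 9 group with different responses to the diet, and the other belongs to Apob, whose level hardly differed between libraries. Capitals mark the letters CAAAGNNCA, the type of site bound by HNF4 and by PPAR with RXR, and CACGTG, the E-box. Both strands were searched, also for TGACGT, the core of the cAMP response element, and AGGNCA, the nuclear receptor half-site.
Apoa4, chr9:46240594-46240695, plus strand: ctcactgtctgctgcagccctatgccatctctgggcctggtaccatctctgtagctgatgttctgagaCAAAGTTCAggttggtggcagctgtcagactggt
Apoa1, chr9:46228380-46228579, plus strand: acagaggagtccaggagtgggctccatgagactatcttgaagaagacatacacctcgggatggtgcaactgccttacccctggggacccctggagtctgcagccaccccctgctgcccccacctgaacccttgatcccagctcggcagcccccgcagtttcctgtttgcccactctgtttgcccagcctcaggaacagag
Apoa5, chr9:46268383-46268632, plus strand: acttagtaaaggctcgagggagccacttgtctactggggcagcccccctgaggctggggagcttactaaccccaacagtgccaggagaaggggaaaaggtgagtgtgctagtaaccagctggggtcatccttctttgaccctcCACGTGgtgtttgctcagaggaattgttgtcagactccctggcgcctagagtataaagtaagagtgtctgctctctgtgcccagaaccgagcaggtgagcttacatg
Apob, chr12:7977427-7977647, plus strand: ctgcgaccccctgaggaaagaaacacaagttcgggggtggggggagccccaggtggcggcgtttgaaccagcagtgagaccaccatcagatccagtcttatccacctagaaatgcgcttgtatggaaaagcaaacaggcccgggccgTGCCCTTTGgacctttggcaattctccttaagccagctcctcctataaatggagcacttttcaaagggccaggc

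The HNF4 and PPAR type letters were found in Apoa4 and, on the opposite strand, in Apob, and the E-box in Apoa5. TGACGT was in none of the 4 stretches, and AGGNCA in Apob only, overlapping the marked letters. The stretches of Apoa2, Apoc2 and Apoe, not printed, held none of CAAAGNNCA, CACGTG and TGACGT. The nuclear receptor half-site letters were matched 3 times in Apoa2, 3 times in Apoc2 and 0 times in Apoe. Apoa2, Apoc2 and Apoe were also at least 2-fold higher in MASLD than in SD. Over all 32851 promoter windows of 300 bases in the table, 6.36% held CAAAGNNCA, 7.15% held CACGTG, 7.51% held TGACGT and 57.2% held AGGNCA. The printed stretches are shorter, 102 to 250 bases. Apoa4 and Apob share the letters and stood at opposite ends of the diet comparison, as the values below show. A match of letters is a description and not a binding site.

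In MASLD the members were higher than in SD with few exceptions. Of the 10, 6 were at least 2-fold higher (Apoa1, Apoa2, Apoa4, Apoc1, Apoc2 and Apoe) and none was 2-fold lower, where 10.4% of the 12776 genes with at least 100 UMIs were 2-fold higher and 3.56% were 2-fold lower. The members' median log2 ratio was 1.27, against 0.14 over all genes measured. Their summed share of hepatocyte-like UMIs was 0.539% for SD, 1.14% for MASLD and 0.748% for Aza-TdC. In Aza-TdC against MASLD, 3 members were at least 2-fold lower (Apoa2, Apoa4 and Apoc3) and none 2-fold higher, against 3.41% and 1.68% of 12947 genes. The members' median there was -0.71, against -0.09 over all genes. In Aza-TdC against SD, 1 member, Apoa4, was 2-fold higher and none 2-fold lower, against 7.43% and 3.5% of 12847 genes. Under median-ratio scaling, described below, the genes past 2-fold in MASLD against SD were 63.2% higher ones in place of 74.5%, and in Aza-TdC against MASLD 44.4% in place of 33.1%. The 3 comparisons share their libraries, so their values are not independent of each other.

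**Figure D1:**
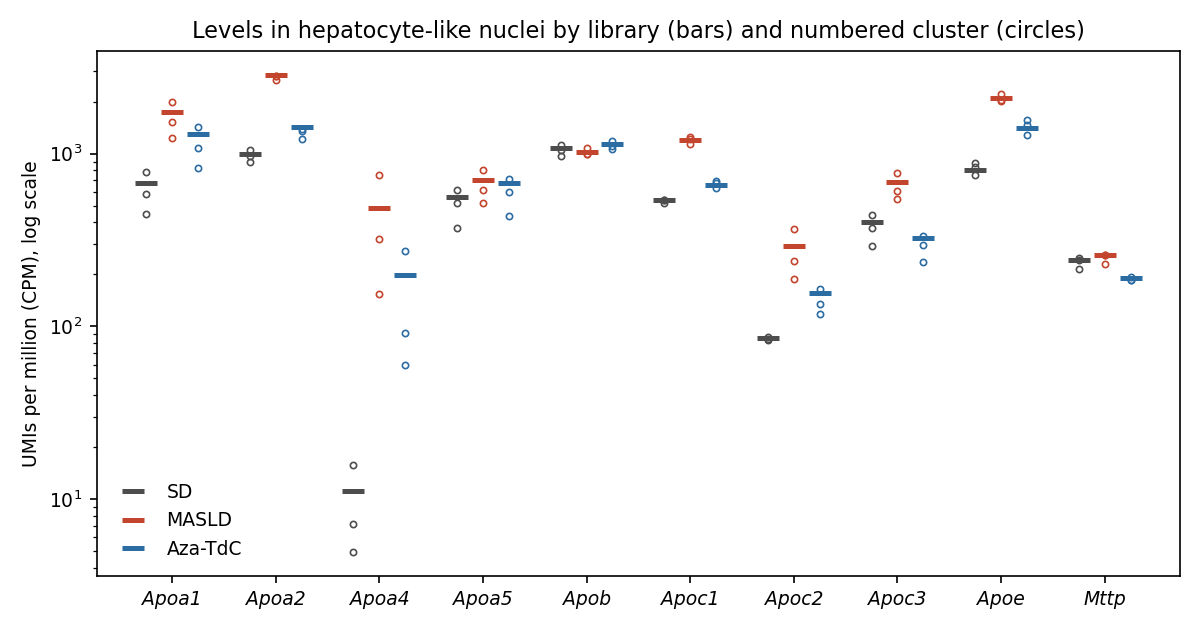
Levels of the 10 genes in hepatocyte-like nuclei, in CPM on a log axis, for SD (grey), MASLD (red) and Aza-TdC (blue). Bars give the whole library and circles the numbered hepatocyte-like clusters with at least 100 nuclei, 3 in each library. Apoa4 spans from 11.1 in SD to 486 in MASLD, while Apob stays between 1028 and 1141.

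Of the core of VLDL assembly, Apob hardly differed between libraries and Mttp was lowest in Aza-TdC. Apob, the structural protein of VLDL, stood at 1080 CPM for SD, 1028 for MASLD and 1141 for Aza-TdC. Its log2 ratio was -0.07 (-0.09 to -0.05) in MASLD against SD and 0.15 (0.13 to 0.17) in Aza-TdC against MASLD, and the ranges over numbered clusters overlapped among all 3 libraries. Mttp, which loads triglyceride onto apolipoprotein B, stood at 244, 257 and 190 CPM in the order SD, MASLD, Aza-TdC. For Mttp the diet ratio was 0.08 (0.04 to 0.12), and it turned to -0.07 when libraries were scaled by the median ratio of genes in place of total UMIs. Under that scaling all log2 ratios of MASLD against SD move by -0.15 and those of Aza-TdC against MASLD by 0.09. Aza-TdC was 0.43 lower than MASLD for Mttp on the log2 scale (ratio -0.43, -0.47 to -0.39). Its 3 clusters with at least 100 nuclei lay between 186 and 193 CPM. The SD clusters lay at 214 to 248 CPM and the MASLD clusters at 228 to 260. The smaller cluster 11 of Aza-TdC stood at 220 CPM, within the SD range.

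RNA of the genes for the HDL proteins was higher on the diet. Apoa1, the main protein of HDL and the activator of LCAT, stood at 674 CPM for SD, 1750 for MASLD and 1305 for Aza-TdC, a log2 ratio of 1.38 (1.36 to 1.40) for the diet and -0.42 (-0.44 to -0.41) for the agent on the diet. Apoa2, the second protein of HDL, stood at 1000, 2873 and 1419 CPM, with log2 ratios of 1.52 (1.51 to 1.54) and -1.02. The Aza-TdC library thus lay between the others for both genes, nearer to MASLD for Apoa1 and nearer to SD for Apoa2. The SD clusters did not overlap the MASLD clusters for either gene, and for Apoa1 the MASLD range of 1230 to 1996 CPM overlapped the Aza-TdC range of 827 to 1429.

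Apoa4 had the largest ratio of the 10. This apolipoprotein of triglyceride-rich particles, best known from intestine, stood at 11.1 CPM (493 UMIs) for SD, 486 CPM for MASLD and 198 CPM for Aza-TdC. MASLD was 43.7-fold higher than SD, a log2 ratio of 5.45 (5.32 to 5.58) that 99.8% of genes measured lay under. Aza-TdC was lower than MASLD by a log2 ratio of -1.29 (-1.33 to -1.26) and still 17.8-fold above SD. When clusters 9 and 13 were left out, 429 MASLD nuclei stayed and the ratios were 4.80 and -0.65, the second under 2-fold. Of those 429 nuclei, 317 were of cluster 14, and 315 of these lay in the pericentral group described below, where Apoa4 was lowest, whereas Aza-TdC kept 6699 of its 6795 nuclei, so the positions compared then differ. Within cluster 14 Apoa4 stood at 153 CPM for MASLD and 59.5 for Aza-TdC. Among clusters with at least 100 nuclei, every one of MASLD (153 to 751 CPM) and of Aza-TdC (59.5 to 272 CPM) lay above every one of SD (4.94 to 15.7 CPM). The MASLD and Aza-TdC ranges overlapped. The smaller cluster 11 stood higher than these ranges, at 794 CPM for MASLD and 466 for Aza-TdC. Apoa5, which helps lipoprotein lipase act on triglyceride-rich particles and lies beyond Apoa4 in the same group, stood at 558, 702 and 675 CPM, and its ratios of 0.33 (0.31 to 0.36) and -0.06 (-0.08 to -0.03) were within 2-fold in both comparisons. The sign of the latter changed to 0.04 with median-ratio scaling and 0.11 in nuclei of low mitochondrial share.

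RNA of the genes for the C apolipoproteins, small exchangeable proteins that tune lipase activity, moved unequally. Apoc2, the cofactor of lipoprotein lipase, stood at 85.1 CPM for SD, 290 for MASLD and 155 for Aza-TdC, with a diet ratio of 1.77 (1.72 to 1.82) on the log2 scale. Apoc1, which inhibits CETP in species that have it and hinders receptor uptake, stood at 537, 1198 and 662 CPM, with a diet ratio of 1.16 (1.14 to 1.18). For Apoc3, an inhibitor of lipoprotein lipase, the levels were 401, 688 and 325 CPM. Its diet ratio of 0.78 (0.75 to 0.81) was under 2-fold, and Aza-TdC was below both other libraries, at -1.08 (-1.11 to -1.05) against MASLD and -0.30 (-0.33 to -0.27) against SD. The Aza-TdC ratios against MASLD were -0.90 for Apoc2 and -0.86 for Apoc1.

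Apoe, the ligand of the LDL receptor family, stood at 801 CPM for SD, 2090 for MASLD and 1404 for Aza-TdC. Its log2 ratios were 1.38 (1.37 to 1.40) for the diet and -0.57 (-0.59 to -0.56) for Aza-TdC against MASLD. Over clusters with at least 100 nuclei the ranges were 753 to 881, 2029 to 2227 and 1287 to 1576 CPM and did not overlap. The smaller cluster 11 stood at 4667 CPM for MASLD and 3174 for Aza-TdC, and with it the ranges of these libraries would overlap.

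Over all members, in clusters with at least 100 nuclei, the ranges of MASLD lay wholly above those of SD for 7 of 10 genes. The share was 31.7% of genes measured (17.4% lay below). Those of Aza-TdC lay wholly below MASLD for 6, against 23.0% (10.7% above), and against SD they lay above for 6 and below for Mttp, against 23.5% and 19.7%. Clusters were built on these nuclei, so these counts describe them and test nothing. They also leave out smaller clusters. With cluster 11, for example, Apoe of Aza-TdC would overlap MASLD and Mttp of Aza-TdC would overlap SD.

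**Figure D2:**
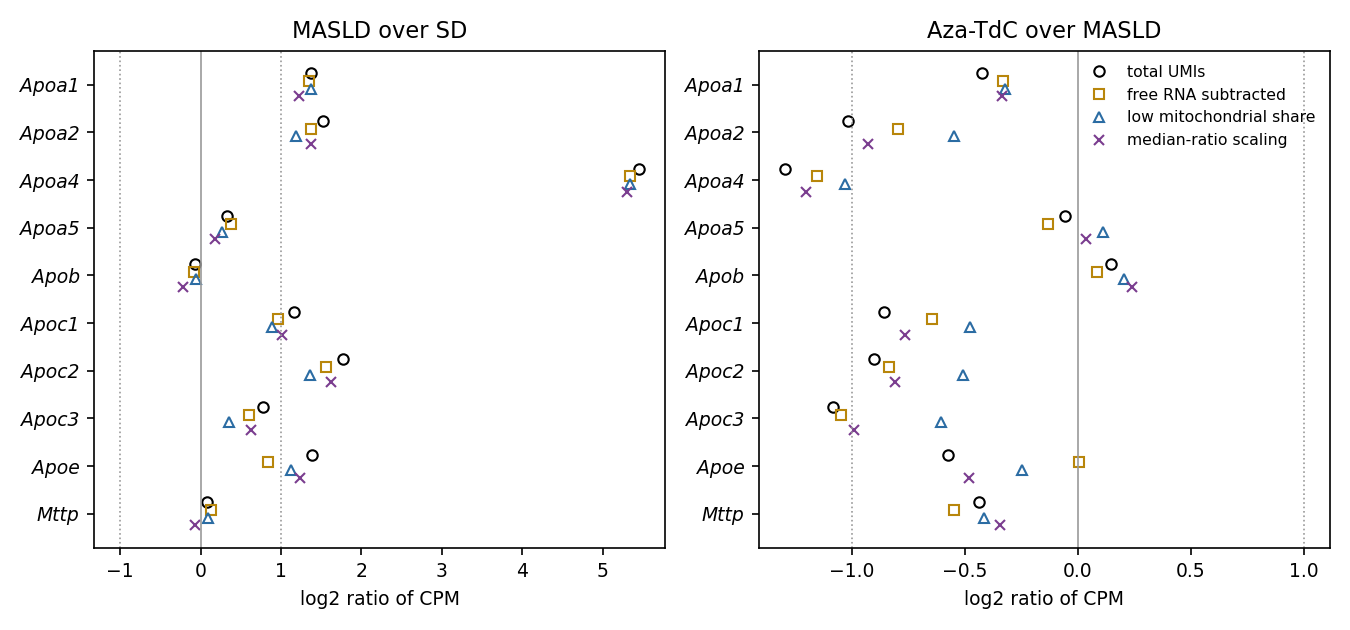
Log2 ratios of CPM in hepatocyte-like nuclei for MASLD over SD (left) and Aza-TdC over MASLD (right), each computed on total UMIs (circles), after subtraction of free RNA (squares), in nuclei with a mitochondrial share at or below the lowest library median (triangles) and with median-ratio scaling (crosses). Dotted lines mark 2-fold. Apoe in Aza-TdC over MASLD goes from -0.57 to 0.00 when free RNA is subtracted.

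RNA set free from broken cells gives UMIs in every droplet, and these genes are abundant in such RNA. In the endothelial-, stellate-, mesothelial- and T and NK-like nuclei together (247, 377 and 366 nuclei in the order SD, MASLD, Aza-TdC), 20 markers made only by hepatocytes stood at a median of 0.724, 0.769 and 0.607 times their hepatocyte-like CPM. The markers themselves spread widely, for example from 0.427 to 1.41 times in endothelial-like nuclei of MASLD. Their median is the reference here, and members are placed against it alone. Apoa5, Apob and Mttp lay under that reference in each library, at 0.328 to 0.541 times. Apoa2, Apoc1, Apoc3 and Apoe lay above it, at 1.03 to 1.97 times, so their CPM was higher in the other classes than in hepatocyte-like nuclei. Apoa1 and Apoa4 also lay above the reference in each library, at 0.764 to 0.966 and 0.772 to 1.04 times. The Apoa4 value of SD rests on 7 UMIs in the other classes. Apoc2 lay under the reference in SD, at 0.667 times, and above it in MASLD and Aza-TdC, at 0.999 and 0.905. When the profile of those classes was subtracted at the share the markers set, it took an estimated 42.3%, 59.0% and 31.7% of the Apoe UMIs of hepatocyte-like nuclei in SD, MASLD and Aza-TdC. For Apob it took 16.7%, 14.1% and 8.38%.

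Some ratios depend on this background. After subtraction the diet ratio of Apoe was 0.84 and that of Apoc1 0.96, both under 2-fold, while those of Apoa1, Apoa2, Apoa4 and Apoc2 were 1.35, 1.37, 5.34 and 1.56. In Aza-TdC against MASLD, Apoe went to 0.00 and Apoa2 to -0.80, while Apoa4 was -1.15 and Apoc3 -1.05. The other classes showed differences for most members too: their CPM of Apoa4 had a log2 ratio of 5.71 (4.66 to 7.03) in MASLD against SD, and Apoe 1.99 (1.88 to 2.11). Apoa5, Apob and Mttp had -0.14, -0.18 and -0.41 in those classes, with intervals that include 0. Of the remaining members Apoc3 was lowest, at 1.12. In nuclei with a mitochondrial share of at most 0.0816% (1587, 587 and 3398 nuclei), a limit set after the values were seen, Apoa2 and Apoc3 were -0.55 and -0.60 in Aza-TdC against MASLD, and Apoa4 was -1.03. There the diet ratio was 1.18 for Apoa2, 0.89 for Apoc1 and 0.35 for Apoc3, and 1.37 for Apoa1. Apoa4 was past 2-fold in both comparisons under all 4 of these computations, and Apob was within 0.25 of 0 in all 4.

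**Figure D3:**
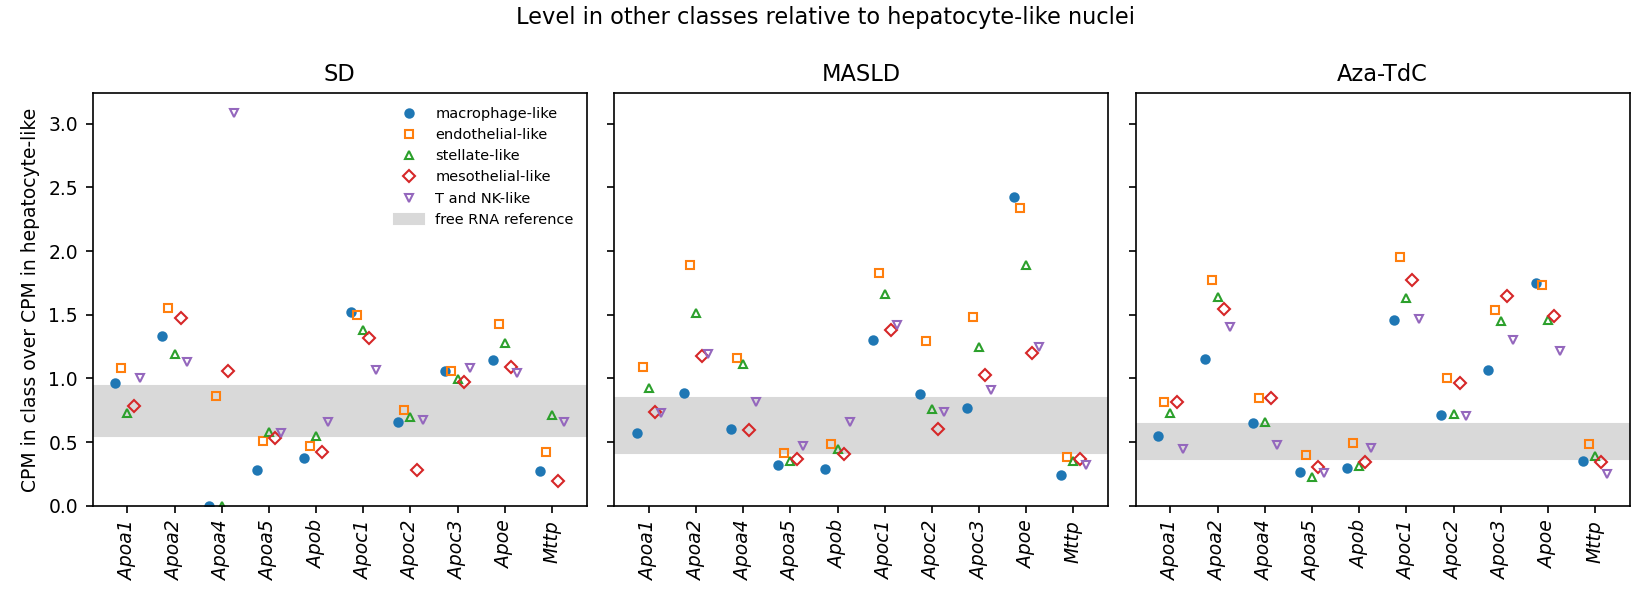
CPM in each class of non-hepatocyte nuclei over CPM in hepatocyte-like nuclei, by gene and library. The grey band is the range over the 5 classes of the median ratio of 20 hepatocyte-only markers, the level of free RNA. Apoa5, Apob and Mttp lie in or under the band, and Apoa2, Apoc1 and Apoe mostly above it. The high Apoa4 point of SD rests on 3 UMIs.

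Macrophages are well known to make apolipoprotein E. In macrophage-like nuclei the Apoe level was 917 CPM (730 to 1139, 82 UMIs in 31 nuclei) for SD, 5073 (4904 to 5247) for MASLD and 2458 (2366 to 2552) for Aza-TdC. That is 1.14, 2.43 and 1.75 times the hepatocyte-like level. Endothelial-like nuclei, with 1.42, 2.34 and 1.74 times, were at much the same ratio. The macrophage-like nuclei held less of the other hepatocyte RNA, however, with a marker reference of 0.544, 0.415 and 0.367 against 0.695, 0.843 and 0.639 in endothelial-like nuclei. Apoe thus stood at 5.85 and 4.77 times the reference in macrophage-like nuclei of MASLD and Aza-TdC, and at 2.77 and 2.72 times in endothelial-like nuclei. In SD the values were 2.10 and 2.05. In macrophage-like nuclei 3, 4 and 4 members were at least 2 times the reference, against 41.3%, 55.9% and 62.0% of all genes.

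A ratio within the same nuclei gives a second view, chosen after values were seen. For every Apoa2 UMI there were 0.80 (0.79 to 0.81), 0.73 (0.72 to 0.73) and 0.99 (0.98 to 1.00) Apoe UMIs in hepatocyte-like nuclei. Macrophage-like nuclei had 0.69 (0.51 to 0.92) in SD, 1.99 (1.88 to 2.11) for MASLD and between 1.42 and 1.60 (the interval) for Aza-TdC. The other 4 classes lay between 0.59 and 0.97 in all libraries. The MASLD and Aza-TdC macrophage-like nuclei therefore had an excess of Apoe over the common ratio, and at 82 UMIs no such excess was detectable in SD. Apoc1, which macrophages can also make, showed 0.61 and 0.59 per Apoa2 UMI in MASLD and Aza-TdC against 0.42 and 0.47 in hepatocyte-like nuclei, a range that mesothelial-like nuclei (0.49 and 0.53) came near. Apoa4 had 0 UMIs in the 31 macrophage-like nuclei of SD, which allows up to 41.3 CPM, and 293 and 129 CPM in MASLD and Aza-TdC, or 0.602 and 0.652 times the hepatocyte-like level.

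Thinned to 1000 UMIs each, 95.0% of 200 macrophage-like nuclei in MASLD and 89.0% of 283 in Aza-TdC held an Apoe UMI, against 99.1% and 97.2% unthinned. The share was 84.7% and 73.6% in hepatocyte-like nuclei and 97.6% and 87.7% in endothelial-like nuclei, taken as the background. Median depths before thinning were 2502.5 and 2871 UMIs for macrophage-like, 6413 and 6764 for hepatocyte-like and 1734 and 1599 for endothelial-like nuclei. By share alone, macrophage-like nuclei were below that background for MASLD and above it by little for Aza-TdC, with overlapping intervals in both.

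Position along the liver lobule was read from a score of 18 pericentral and 20 periportal markers, none of them a member, and the nuclei of each library were cut into 3 groups of equal size. Cuts along a score are ranges and not cell types, and 15.9% to 19.7% of nuclei lay within 0.1 SD of a cut. Glul, the pericentral glutamine synthetase, stood at 242, 537 and 319 CPM in the pericentral group of SD, MASLD and Aza-TdC and 36.1, 43.8 and 20.1 in the periportal group. Only Apoa4 was at least 2-fold higher in the periportal group, and no member was 2-fold lower, in any library. Over all genes the shares were 1.51% and 2.44% in SD, 2.48% and 2.7% in MASLD and 2.57% and 2.21% in Aza-TdC.

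**Figure D4:**
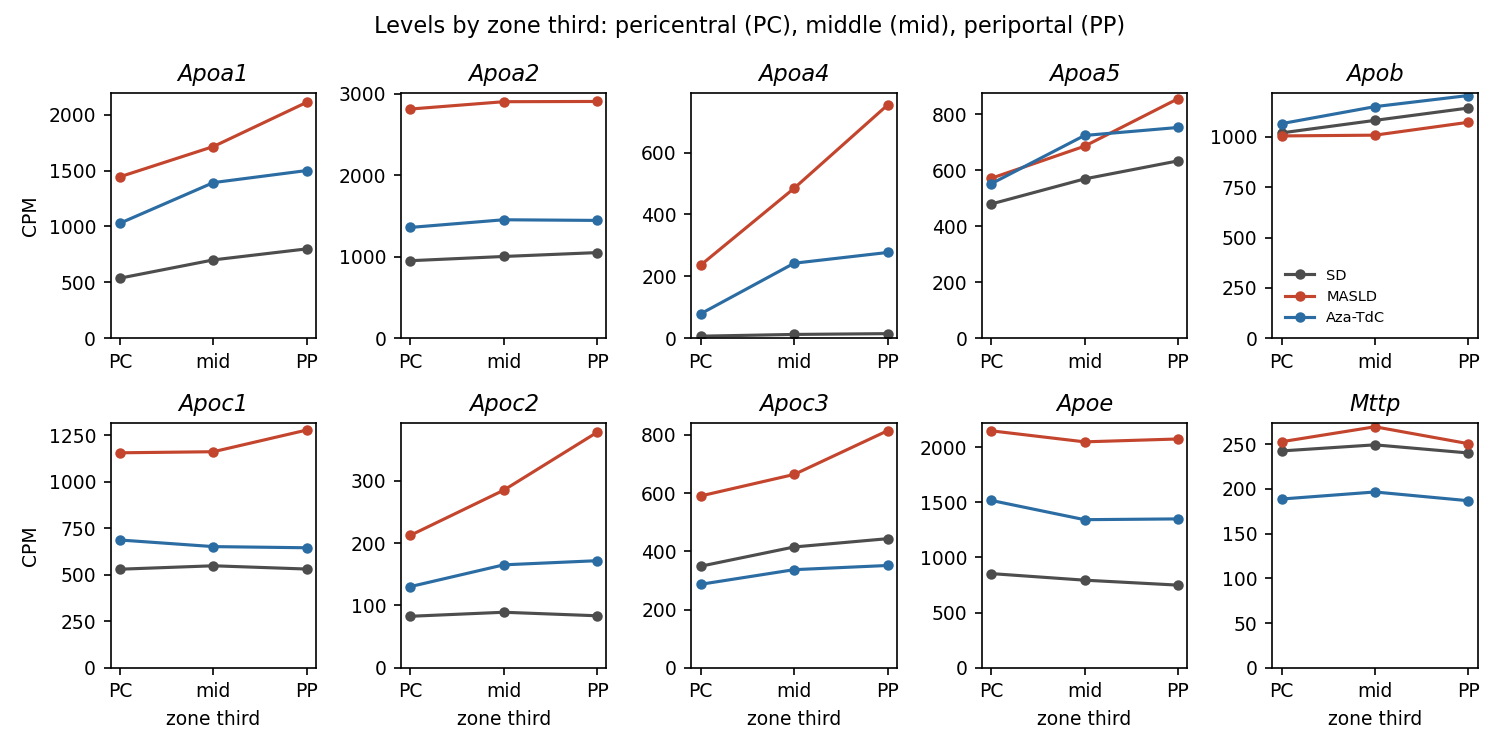
CPM of each gene in the pericentral (PC), middle (mid) and periportal (PP) group of hepatocyte-like nuclei in SD (grey), MASLD (red) and Aza-TdC (blue). Lines join values of the same library. Apoa4 climbs from 237 to 753 (MASLD) and from 79.2 to 277 (Aza-TdC), whereas Apoa2, Apob, Apoe and Mttp are nearly level.

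Apoa4 stood at 6.68, 12.3 and 14.9 CPM in the pericentral, middle and periportal group of SD. In MASLD the values were 237, 485 and 753 CPM, and in Aza-TdC 79.2, 242 and 277 CPM. The periportal over pericentral log2 ratio was 1.15 (0.81 to 1.51) for SD, 1.67 (1.62 to 1.73) for MASLD and 1.81 (1.72 to 1.90) for Aza-TdC. MASLD exceeded SD at every position, with log2 ratios of 5.15, 5.30 and 5.66 from pericentral to periportal. Aza-TdC against MASLD gave -1.58 (-1.67 to -1.49) in the pericentral, -1.06 to -0.94 (interval) in the middle and -1.44 (-1.49 to -1.39) in the periportal group.

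Its neighbours on chromosome 9 leaned the same way at a smaller size. The periportal over pericentral ratio was 0.57, 0.55 and 0.54 for Apoa1, 0.40, 0.58 and 0.45 for Apoa5, and 0.35, 0.46 and 0.29 for Apoc3, in the order SD, MASLD, Aza-TdC. Apoa1 held the same position ratio in each library while its level differed 2.60-fold between SD and MASLD. Apoc2 showed a different course, level in SD (0.01, -0.10 to 0.13) and periportal in MASLD (0.83, 0.76 to 0.90) and Aza-TdC (0.40, 0.32 to 0.48). Its levels in MASLD were 213, 285 and 378 CPM from pericentral to periportal, against 82.7, 89.2 and 83.5 in SD. Apoe leaned pericentral by a little in each library, with -0.19 (-0.23 to -0.15), -0.05 (-0.07 to -0.03) and -0.17 (-0.19 to -0.14). The ratios of Apoa2, Apob, Apoc1 and Mttp lay between -0.09 and 0.18.

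Counted by nucleus, Apoa4 was seen in a larger share of hepatocyte-like nuclei on the diet, as it was in other classes. With each nucleus thinned to 3000 UMIs, 3.40% of 6235 nuclei had an Apoa4 UMI in SD, 63.3% of 5630 in MASLD and 36.1% of 6487 in Aza-TdC. Shallower nuclei were left out, 626, 345 and 308 of them. Thinned to 1000 UMIs the shares were 1.06%, 33.7% and 16.8%, beside 34.7% and 12.9% in the endothelial-like nuclei of MASLD and Aza-TdC and 0.847% in those of SD. At equal depth the hepatocyte-like share was below the endothelial-like background for MASLD and above it for SD and Aza-TdC. Their intervals overlapped in each library. In macrophage-like nuclei of MASLD the share was 17.0% (12.1% to 22.9%), under the hepatocyte-like interval of 32.5% to 34.9%. Stellate-, mesothelial- and T and NK-like nuclei of MASLD had 35.0%, 23.9% and 15.8%. Macrophage-like and these other classes had 8.70% to 12.4% in Aza-TdC and 0% in SD. The part of free RNA in all these shares was not tested. Within MASLD hepatocyte-like nuclei the share differed by position: 45.0% of pericentral and 79.6% of periportal nuclei had an Apoa4 UMI at 3000, and 0.80% and 12.4% had 5 or more. The counts spread more widely than a Poisson distribution, with a variance to mean ratio of 1.17, 2.15 and 1.69. All 10 members were above 1 in each library, and in MASLD Apoa2 (3.84), Apoe (2.80) and Apoa1 (2.77) were above Apoa4.

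**Figure D5:**
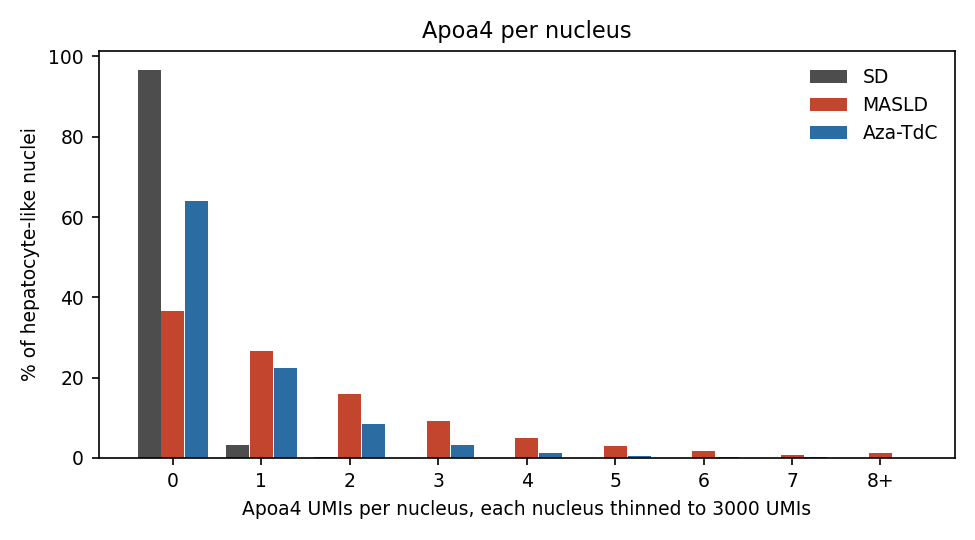
Share of hepatocyte-like nuclei (bars, in percent) by their number of Apoa4 UMIs after thinning each nucleus to 3000 UMIs, for SD (grey), MASLD (red) and Aza-TdC (blue). In SD 96.6% of nuclei have 0, in MASLD 36.7% and in Aza-TdC 63.9%.

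Cluster 11, whose leading genes include Fgf21, Angptl8 and Osgin1, held 71 MASLD and 84 Aza-TdC nuclei. Several members stood above their level in the other hepatocyte-like nuclei of the library. In MASLD 6 and in Aza-TdC 7 of the 10 were at least 2-fold higher, against 16.8% and 13.5% of genes. Apoa1 stood at 4862 and 3476 CPM there, 2.87-fold and 2.74-fold higher, and Apoa5 at 1652 and 1683 CPM, 2.41-fold and 2.55-fold higher. Apob was level, at 1.06-fold and 1.05-fold, as was Mttp, at 0.968-fold and 1.16-fold. These nuclei were deeper, with medians of 9855 and 8495 UMIs against 6371 and 6744, and had lower mitochondrial shares, 0.139% and 0.0686% against 0.188% and 0.0817%. The part of depth in this pattern was not tested, and the cluster was built on these same nuclei.

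Genes with a level most like a member's over the 9 sums of library and position were ranked by Pearson's r of log2(CPM + 1) among 13518 genes, as a description over values that share libraries. For Apoa4 they were Grb14, Pkhd1, Tor1b, Fgf21 and Agpat3, with r of 0.994 to 0.996. Of these, Fgf21, the fasting hormone of liver, had a diet ratio of 4.59, and the other 4 had 0.64 to 1.05. For Apoe they were Zbtb44, Etfbkmt, Bsg, Lrba and Crebrf (0.994 to 0.996), and for Apob they were Lzts3, Kcnq1ot1, Neu3, Csnk1g3 and Man1a2 (0.966 to 0.973). Among the members, Apoa4 followed Apoa1 (r = 0.99) and Apoc2 (0.95) most closely, and Apob had r from -0.68 to 0.48 with the other 9.

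Most measured genes within 100 kb of the members were within 2-fold in MASLD against SD. Beside the chromosome 9 group 4 other genes had enough UMIs, and 3 were at least 2-fold lower in MASLD than in SD: Zpr1 at -1.24, Bud13 at -2.10 and 4931429L15Rik at -3.14, with Sik3 at -0.51. Beside the chromosome 7 group 8 others were measured, with ratios from -0.75 for Tomm40 to 1.14 for Apoc4, another apolipoprotein and the only one past 2-fold, which was also lower in Aza-TdC than in MASLD, at -0.64. Of 12 near Apoa2, ratios went from -0.59 for Usp21 to 1.22 for Cfap126, which had -0.39 in Aza-TdC against MASLD. Cfap126, Sdhc, Fcer1g and Ufc1 had the signs of Apoa2 in both comparisons, and the rest did not. Fcer1g was at -1.01 in Aza-TdC against MASLD. The 2 near Apob had -0.05 and 0.35 (Gm33037 and Gm48633), and the 5 near Mttp -0.96 (0610031O16Rik) to 0.24 (Trmt10a).

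The 5 lists of related genes were counted in the same way. In all, 30 of 138 genes measured (21.7%) were 2-fold higher and 5 (3.62%) lower in MASLD than in SD, beside 10.4% and 3.56% of all genes. There were 7 higher and 7 lower (5.07% each) in Aza-TdC against MASLD, beside 1.68% and 3.41%, and against SD 26 of 136 were higher (19.1%) and 2 lower (1.47%), beside 7.43% and 3.5%. The fed, fasting and PPARA list alone gave 15 of the 30 on the diet. Of 12 other apolipoproteins measured, 6 were 2-fold higher and 0 lower in MASLD than in SD, with a list median of 0.76 against 0.14 over all genes. They were Apoc4, Apom, Apof, Apon and the acute phase apolipoproteins Saa1 and Saa2, the last at 3.36, 13.1 and 4.27 CPM in SD, MASLD and Aza-TdC. Apol9a and Apol9b, interferon-inducible members of the APOL family, instead were highest in Aza-TdC, at 1.76 and 1.90 against MASLD. They were the 2 that were 2-fold higher there, and Saa2 was the 1 that was lower.

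Of 34 partners of VLDL assembly and secretion, 1 (Sort1) was 2-fold higher and 1 (Ces3b) lower on the diet (2.94% each), with a median of 0.34. Sort1, the sorting receptor that binds apolipoprotein B, stood at 5.07 CPM for SD, 18.8 for MASLD and 11.9 for Aza-TdC. Ces3b, a lipase of the endoplasmic reticulum, stood at 536, 211 and 94.5 CPM, with ratios of -1.34 for the diet and -1.16 for Aza-TdC against MASLD. Tm6sf2, which helps lipidate VLDL, stood at 14.7, 7.51 and 16.6 CPM, a ratio of -0.97 for the diet and 1.14 for Aza-TdC against MASLD. For Surf4, the cargo receptor for lipoproteins, the diet ratio was 0.99. In Aza-TdC against MASLD, Tm6sf2 was the 1 of 34 that was higher and Ces3b the 1 that was lower.

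Among 30 receptors, lipases and clearance genes, 4 were higher (13.3%) and 1 lower (3.33%) in MASLD than in SD, also near the share over all genes. Those higher were Lpl, lipoprotein lipase (0.158, 4.50 and 4.43 CPM), Vldlr, a receptor of triglyceride-rich particles (1.13, 7.48 and 4.55 CPM), Pltp, which transfers phospholipid between lipoproteins (6.27, 28.7 and 48.3 CPM), and Gpihbp1, the endothelial anchor of lipoprotein lipase (0.496, 2.18 and 0.906 CPM). The part of free RNA in the few UMIs of Gpihbp1 was not tested. Lrp1, a remnant receptor, was the gene that was lower, at -1.27. In Aza-TdC against MASLD none was higher and 2, Gpihbp1 and Stab2, both endothelial genes, were lower.

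Of 35 transcription factors and cofactors of these genes, 4 were higher (11.4%, near the share over all genes) and 2 lower (5.71%) on the diet, with a median of -0.09. Pparg stood at 32.8, 114 and 67.8 CPM and Srebf1, the driver of fatty acid synthesis, at 112, 246 and 245 CPM. Among those lower on the diet was Foxa3 (133, 55.3 and 66.9 CPM). Foxa2 and Cebpa were the other 2 that were higher, at 1.02 and 1.01. Against MASLD, 2 were higher in Aza-TdC, among them Nr0b2 at 1.01, and 0 lower. Of 27 fed, fasting and PPARA response genes, 15 were higher and 1, Acly, lower in MASLD, with a median of 1.54. Cd36, a fatty acid transporter, stood at 8.97, 342 and 208 CPM, and the lipid droplet genes Cidec at 12.3, 216 and 87.9 and Cidea at 0.428, 38.1 and 0.584 CPM. Fgf21 stood at 2.80, 67.2 and 42.8 CPM. In Aza-TdC against MASLD 2 of the 27 were higher, among them Pnpla3 at 1.79, and 3 were lower, Cidea at -6.03, Cidec at -1.30 and Mogat1 at -1.23.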

How the data were processed

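Single nuclei of frozen liver (120 mg per library) were sorted by flow cytometry and run on the 10x Genomics platform (3' kits v3.1), per the labels' protocols. The authors deposited UMI counts, whole numbers without normalization, which Cell Ranger 6.1.2 wrote, per the file headers. The submitters' processing notes also name Seurat 4.4.0 and give mm10 and GRCm38 as builds. Any treatment of introns, doublets and free RNA by the authors was not given in the sources used here.

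Kept nuclei had 500 or more UMIs, 300 or more genes and a mitochondrial share of up to 5%, which left out 0 barcodes of SD, 202 of MASLD and 7 of Aza-TdC. No doublet caller was run, so doublets remain. All libraries entered 1 clustering with no integration (Python 3.11.15, scanpy 1.11.5 and igraph 0.11.9), on 30 principal components of 3000 variable genes, with 15 neighbours per nucleus and the Leiden method at resolution 1, giving 16 clusters. A cluster took the non-hepatocyte class whose markers had a median log2 ratio of at least 3 to all other nuclei, with 3 markers 2-fold higher. Failing that, it was called hepatocyte-like if 3 or more hepatocyte markers reached 0.25 of their top level over clusters. Cluster 15 met that rule with 18 hepatocyte markers. A further rule took the name from clusters far below their library's median depth with no marker of their own class among the 10 leading genes. Cluster 15, at 0.166 of the library median and with 3 erythroid markers among its leading genes, was left unnamed by it.

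UMIs were summed per class and scaled to CPM. Levels have exact Poisson, ratios exact conditional binomial and shares exact Clopper-Pearson intervals at 95%, and none covers differences between animals. A gene entered a ratio with at least 100 UMIs over both sums and was counted as higher or lower at 2-fold. The interval and fold steps were tested on simulated Poisson counts. The members' counts per nucleus spread more widely than that, so the check cannot show whether the intervals are wide enough for these data. Of 32285 features, 32158 were found in GENCODE vM21.

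The members, marker lists and gene lists were chosen with earlier results of these data known. Named genes are all members, up to 4 per list with the largest ratio, the 5 genes most alike for Apoa4, Apob and Apoe, and neighbours within 100 kb. Other list genes named (Apoc4, Apom, Apof, Apon, Lrp1, Stab2, Foxa2, Cebpa, Nr0b2, Acly, Pnpla3 and Mogat1) were chosen after their values were seen, as were the leading genes of clusters. A few list genes are counted but their values are not reported here. Alternatives to filters, clustering, naming, scaling, free RNA, minimum counts and zone scores were run one at a time, 4 of them added after seeing the data.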

Additional observations from a re-analysis of the deposited data

Results flagged for a closer look

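The position ratio of Apoc1 had opposite signs in the diet libraries. The periportal over pericentral log2 ratio was 0.145 (0.11 to 0.18) for MASLD and -0.0903 (-0.13 to -0.05) for Aza-TdC. The difference between libraries was not tested.

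The unnamed cluster, which entered no comparison, held 158 MASLD and 113 Aza-TdC nuclei with medians of 1216.5 and 744 UMIs. The 10 members summed to 20379 CPM there in MASLD and 15099 CPM in Aza-TdC, above the 11363 and 7475 CPM of hepatocyte-like nuclei. SD had no nucleus in it. Apoc1, for example, stood at 2564 and 2043 CPM, 2.14-fold and 3.08-fold above hepatocyte-like nuclei, whereas Apob stood at 1101 and 1223 CPM, 1.07-fold in both.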

How the results depend on the processing

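Members' ratios were recomputed under 16 settings for libraries and 7 for positions, and none of the called values changed sign. Other ratios of members did change sign, at most 2 in any setting. Of the 6 members called higher in MASLD than in SD, Apoe and Apoc1 fell under 2-fold with free RNA subtracted (0.84 and 0.96). Apoc1 did so with a low mitochondrial share too (0.89). In MASLD against SD the count of 5-list genes lower was 9 with median-ratio scaling (5 otherwise). In Aza-TdC against MASLD, 1 member, Apoa4, was 2-fold lower with median-ratio scaling and with a low mitochondrial share, in place of 3, and 18 list genes were lower, in place of 7, when clusters 9 and 13 were left out. In Aza-TdC against SD, 2 members, Apoa4 and Apoa1, were higher with free RNA subtracted and with a low mitochondrial share, in place of 1, and list genes lower numbered 4 with median-ratio scaling, 5 with a minimum of 1 UMI and 5 with free RNA subtracted, in place of 2. With Alb alone as the reference, 2 members in place of 4 were at 2 times in macrophage-like nuclei of MASLD. Without clusters 9 and 13 the Apoa4 ratios were 4.80 for the diet and -0.65 for Aza-TdC against MASLD, where the MASLD nuclei left are mostly pericentral. The cause of these changes was not tested. Depth limits the smaller classes, with 23 to 31 macrophage-, mesothelial- and T and NK-like nuclei in SD. No paired analysis was possible because each group has 1 library.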
